A study of Arabidopsis thaliana with 6 samples.

Results

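The genes described here are 34 nuclear genes of the photosynthetic thylakoid membrane, taken by locus identifier from the 36793 loci of the deposited tables. They comprise 10 antenna genes of photosystem II (LHCB), 4 antenna genes of photosystem I (LHCA), 9 genes for photosystem I subunits (PSA), 8 for photosystem II subunits (PSB) and 3 for electron carriers (PETC, PETE1 and DRT112). All samples were callus of Arabidopsis thaliana with the genotype Col-0, the common laboratory strain, with no other allele, transgene or treatment named in the labels. Callus is the unorganised, proliferating tissue that cut plant organs form on hormone medium, and here it was grown on callus-inducing medium from leaves of 2-week-old seedlings. The 2 groups, labelled 7DAC and 12DAC, were collected after 7 and 12 days on that medium, with 3 biological replicates each and RNA-seq of total RNA as the readout. Whether the replicates came from separate plants or plates is not given in the sources used here, so p-values measure the spread between these samples, which may be technical. The samples are bulk tissue, so fewer green cells and less RNA per green cell cannot be told apart in any value below, and no leaf sample was analysed here.

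Light-harvesting proteins bind chlorophyll and pass excitation energy to the reaction centres of the photosystems. Photosystem II oxidises water, the cytochrome b6f complex and plastocyanin carry electrons on, and photosystem I reduces ferredoxin. The chloroplast genome encodes the reaction centre cores, while the antenna proteins and many peripheral subunits are encoded in the nucleus. In leaf mesophyll the nuclear genes are highly expressed and depend on light, on chloroplast state and on GLK transcription factors, and Arabidopsis callus on auxin-rich medium is known to take on root-like features.

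The tables held 4927953 to 10746277 counts per library, and a count of 3 stood for 0.269 to 0.635 CPM (counts scaled to a common library size with TMM factors). Ribosomal RNA loci took 0.121% to 3.90% of the counts. They took 1.67% to 30.7% of the deposited TPM (a share of transcripts corrected for their length), with the highest share in day 7 replicate 1, so TPM was used to compare genes within a library and CPM to compare libraries. Of the markers used to check the tissue, all 12 callus markers were detected and summed to 910 to 977 CPM on day 7 and 872 to 952 CPM on day 12. Within that sum single genes moved both ways. From day 7 to day 12 the mean went from 427 to 305 CPM for AIL6 and from 40.3 to 131 CPM for WOX11. The 6 leaf mesophyll markers summed to 59.9 to 104 CPM on day 7 and 26.9 to 36.7 CPM on day 12, where RBCS1B and RBCS2B, genes for the Rubisco small subunit, had 0 counts.

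The LHCB1 genes are shown first because 3 of them are near-identical neighbours on chromosome 1 between which reads can be divided, and because the largest fitted change fell on one of their number. In the RefSeq annotation of assembly TAIR10.1, LHCB1.1 (AT1G29920) lies at chr1:10474656-10475969 on the minus strand, LHCB1.2 (AT1G29910) at chr1:10472280-10473502 on the minus strand and LHCB1.3 (AT1G29930) at chr1:10477885-10479114 on the plus strand, each with 1 exon. The submitters name the build TAIR10, and no coordinate was converted. Their coding sequences are each 804 bases long and differ among the 3 genes at 47 positions, 9 of which fall in coding bases 1 to 90. These bases are printed here from RefSeq, with the differing positions in capitals.
LHCB1.1: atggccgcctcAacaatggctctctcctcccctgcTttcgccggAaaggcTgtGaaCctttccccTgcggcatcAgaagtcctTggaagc
LHCB1.2: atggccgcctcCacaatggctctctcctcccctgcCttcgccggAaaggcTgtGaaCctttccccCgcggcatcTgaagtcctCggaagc
LHCB1.3: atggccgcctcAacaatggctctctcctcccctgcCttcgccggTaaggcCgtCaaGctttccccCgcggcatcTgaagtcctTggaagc
LHCB1.1 and LHCB1.3 were identical at 96.1% of coding bases, LHCB1.1 and LHCB1.2 at 95.6%, and LHCB1.2 and LHCB1.3 at 96.4%. Of all 50-base windows of its transcript, 20.5% of LHCB1.1, 10.6% of LHCB1.2 and 22.0% of LHCB1.3 occurred exactly in another gene. LHCB2.1 and LHCB2.2 were 96.6% identical and shared 308 windows, 22.7% and 28.2% of their own. The treatment of reads that fit several places, and whether strand was used, are not given in the sources used here, so counts of these 5 genes are uncertain. The same holds for genes whose annotated transcript overlaps that of a neighbour. LHCB1.3 shared 59 windows with NRPA2 and LHCB3 shared 137 with ATM2, both of which had at least 618 counts in every library. LHCB6 shared 54 windows with AT1G15810, which had 231 to 700 counts. PSAE-1 shared 218 windows with AT4G28755 and PSAH2 shared 125 with ROPGEF11, which had at most 1 count in a library. LHCA2 shared 119 windows (8.76% of its own) with AT5G28450, a locus on another chromosome that had at most 1 count in a library. The window counts were made after the values of these genes were seen.

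Of the 34 genes, 31 passed the filter on low counts. Between day 7 and day 12, 19 of the 31 fell and 0 rose at a Benjamini-Hochberg adjusted p of 0.05 in edgeR's quasi-likelihood test across all 18364 genes tested, where 12.5% of genes were called lower and 12.7% higher. The median log2 change of the 31 was -1.06, beside -0.0015 for all genes tested, and every fitted value lay below 0, from -3.39 for LHCB1.1 to -0.25 for LHCB4.2. In 25 of the 31 the 3 day 12 libraries lay wholly below the 3 day 7 libraries in CPM, which held for 22.5% of all genes tested. At an unadjusted p of 0.05, 28 of the 31 were lower, beside 19.2% of all genes tested, and 0 were higher. DESeq2 called 25 of the 31 lower, and also LHCB1.2 (adjusted p = 0.0387), and 0 higher, where 10% of all genes were called lower. The genes that fell were LHCB1.1, LHCB2.1, LHCB4.1 and LHCB6 of the photosystem II antenna, LHCA1, LHCA2 and LHCA4 of the photosystem I antenna, 8 of the 9 photosystem I subunit genes, PSBP-1, PSBQ-1 and PSBX of photosystem II, and the plastocyanin gene DRT112. The number called rested on single libraries. Of the 31 genes it was 8 after loss of day 7 replicate 1 (6.62% of all genes called lower there), 20 after loss of day 7 replicate 2 (7.84%) and 11 after loss of day 7 replicate 3 (8.05%). It was 10 after loss of day 12 replicate 1 (8.27%), 17 after loss of day 12 replicate 2 (9.22%) and 10 after loss of day 12 replicate 3 (10.9%). LHCB2.2, outside the 31, passed the filter after loss of day 7 replicate 2 and was called lower there (adjusted p = 0.0189).

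The count of the 31 under other settings is set here beside the share of all genes called lower under the same setting. It was 18 with RLE factors (12%), 20 with library sizes alone (14.7%), also 20 with upper-quartile factors (14.3%), 15 with no count filter (8.83%, with LHCB1.2 called besides, adjusted p = 0.0319), 17 with the replicate block (13.8%), 19 without rRNA and organelle loci (12.8%) and 13 with limma-voom (12.7%). On log2(TPM + 1) it was 16 (1.52%), on log2(TPM + 0.1) also 16 (1.5%), on log2(TPM + 1) with no filter 4 (0.457%) and on rescaled TPM 16 (8.62%). With a robust empirical Bayes step, added after seeing the data, it was 15 with limma-voom (12.8%), 25 on log2(TPM + 1) (3.05%), 25 on log2(TPM + 0.1) (3.06%), 5 with no filter (0.876%) and 14 on rescaled TPM (8.73%).

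**Figure D1:**
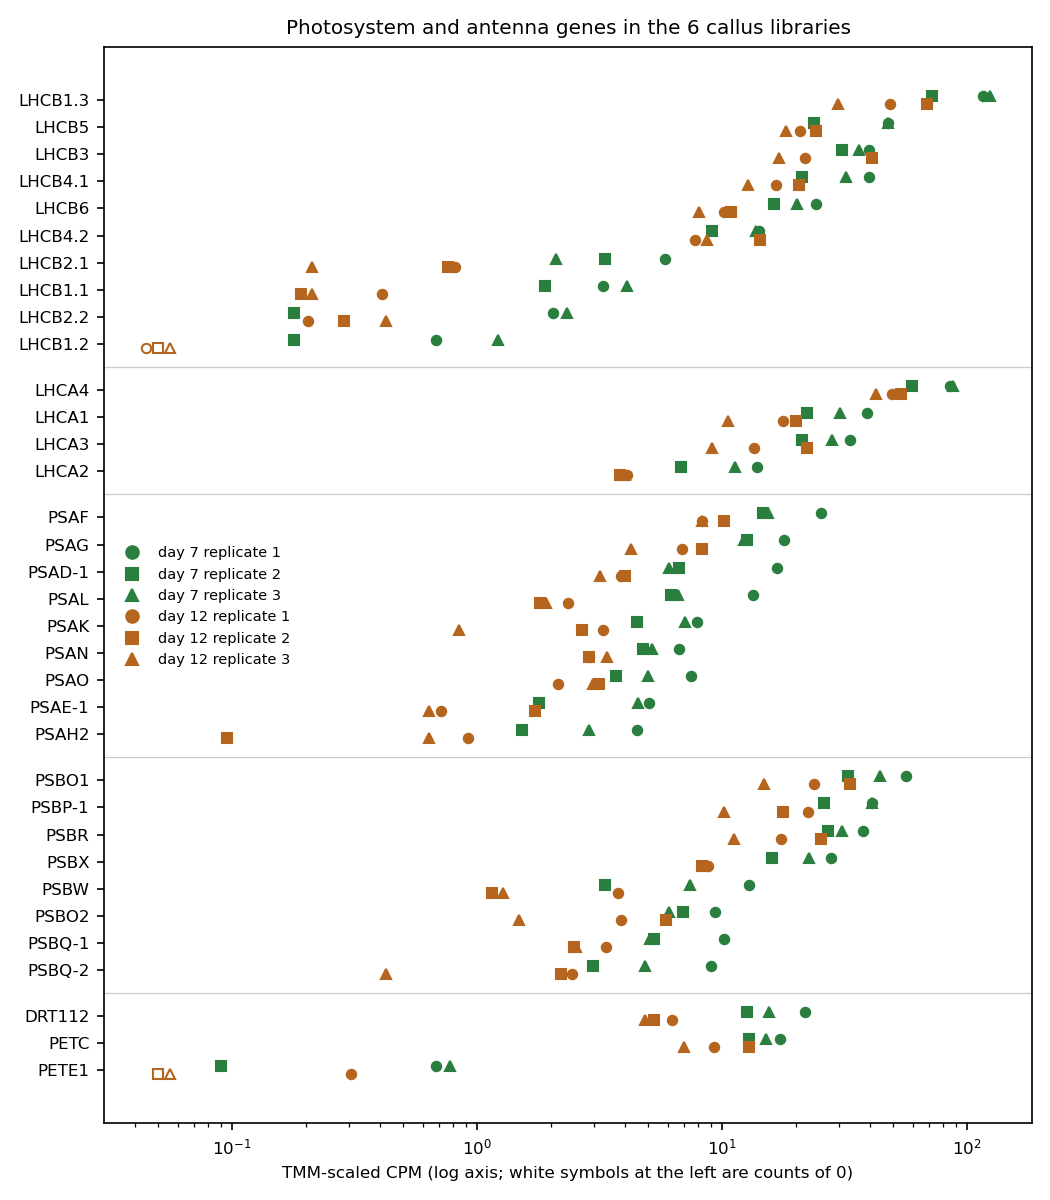
TMM-scaled CPM of the 34 genes (log axis) in each of the 6 libraries, grouped from top to bottom as photosystem II antenna, photosystem I antenna, photosystem I subunits, photosystem II subunits and electron carriers. Green symbols are day 7 and brown symbols day 12, and white symbols at the left are counts of 0. Day 12 replicate 2 lies above the lowest day 7 library for LHCB2.2, LHCB3, LHCB4.2, LHCB5, LHCA3 and PSBO1.

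**Figure D2:**
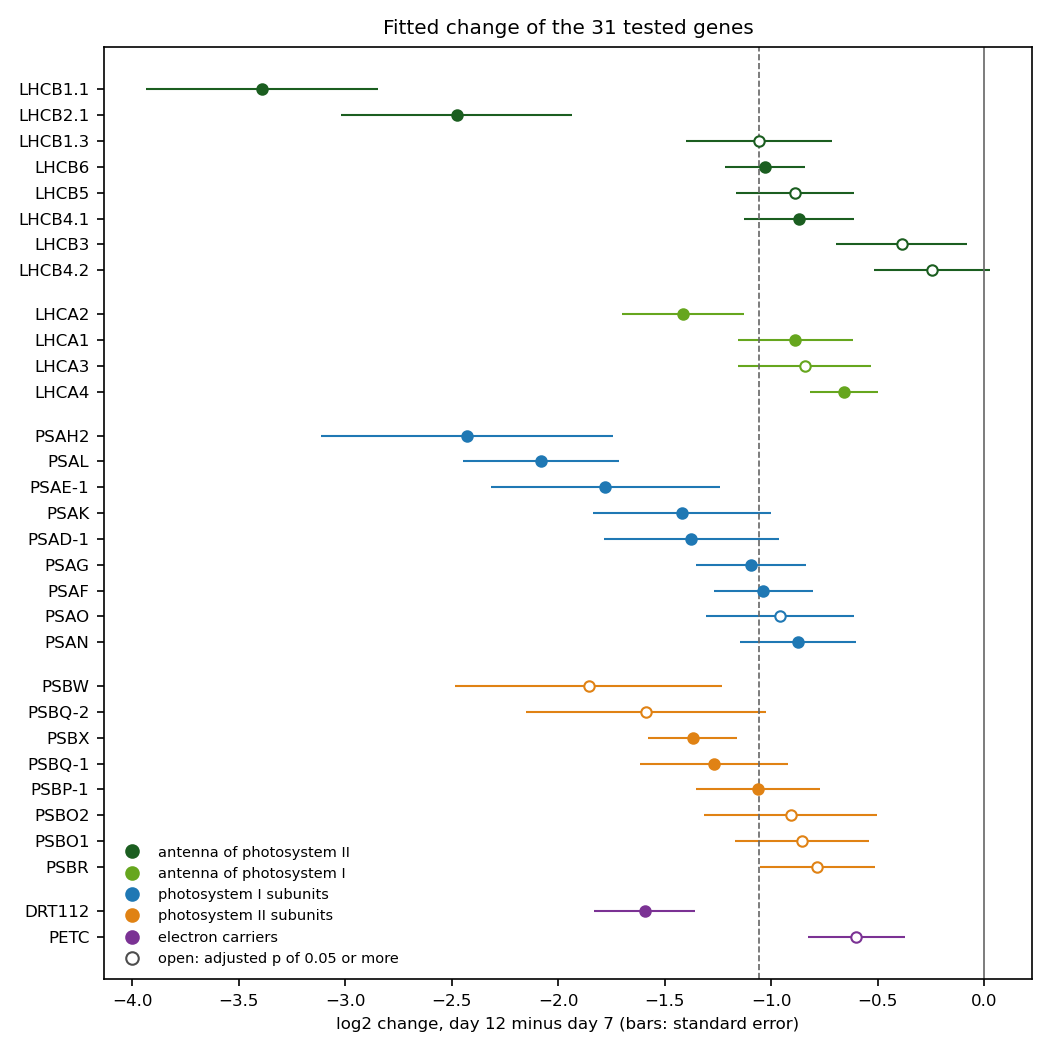
Fitted log2 change from day 7 to day 12 of the 31 tested genes, with the standard error as bars. Filled symbols passed an adjusted p of 0.05, the solid line marks 0 and the dashed line the median of the 31 genes, -1.06.

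The photosystem II antenna is made of trimers of LHCB1, LHCB2 and LHCB3 proteins, joined to the core by the monomeric proteins of the LHCB4, LHCB5 and LHCB6 genes. In the order of replicates 1, 2 and 3, which is kept throughout, LHCB1.1 stood at 3.26, 1.89 and 4.09 CPM on day 7 and at 0.408, 0.191 and 0.212 CPM on day 12. The groups did not overlap, and LHCB1.1 fell by 3.39 ± 0.54 on the log2 scale (SE, adjusted p = 0.00388). Over the group its counts went from 82 to 7, and the depth-scaled ratio was 10.6 with a 95% exact counting interval from 4.94 to 27.3, which covers counting error only. LHCB1.2 had counts of 5, 2 and 11 on day 7 and 0 in each day 12 library. It was not tested. With 3 counts taken as the floor of the whole day 12 group the depth-scaled ratio was 5.45, which leaves out the counting error of the 18 day 7 counts. Its deposited TPM was 0.51, 0.25 and 1.33 on day 7 and 0, 0 and 0.46 on day 12. In TPM the days therefore overlapped, and the 2 deposited tables do not divide the reads of this gene alike.

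LHCB1.3 carried nearly all counts of these 3 copies, with 116, 72.1 and 124 CPM on day 7 and 48.6, 68.7 and 29.9 CPM on day 12. Its day 12 libraries lay below those of day 7, day 12 replicate 2 only just, and the change of -1.06 ± 0.34 did not pass (adjusted p = 0.0734). LHCB2.1 (AT2G05100) stood at 5.85, 3.32 and 2.103 CPM on day 7 and at 0.816, 0.764 and 0.212 CPM on day 12. It fell by 2.48 ± 0.54 (adjusted p = 0.0119), with no overlap, and its day 12 counts were 8, 8 and 1. Its copy LHCB2.2 (AT2G05070) had 15, 2 and 21 counts on day 7 and 2, 3 and 2 on day 12, for which the depth-scaled ratio was 4.93 (95% exact counting interval 2.17 to 13.1), and was not tested. Day 7 replicate 2, at 0.180 CPM, lay below the day 12 libraries of LHCB2.2, at 0.204 to 0.423 CPM.

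Among the remaining antenna genes of photosystem II, LHCB6 (AT1G15820) stood at 24.1, 16.3 and 20.1 CPM on day 7 and at 10.2, 10.9 and 8.05 CPM on day 12. It fell by 1.03 ± 0.19 (adjusted p = 0.00611), and the groups lay apart. LHCB4.1 (AT5G01530) went from 39.9, 21.2 and 32.1 CPM to 16.6, 20.6 and 12.7 CPM. It fell by 0.87 ± 0.26 (adjusted p = 0.0455), with day 12 replicate 2 close to day 7 replicate 2. LHCB4.2 (AT3G08940), which encodes a second form of the same antenna protein, stood at 14.1, 9.07 and 13.7 CPM on day 7 and at 7.75, 14.2 and 8.68 CPM on day 12. The groups overlapped, and its change of -0.25 ± 0.27 did not pass (adjusted p = 0.548). LHCB3 (AT5G54270) overlapped as well, at 30.8 to 39.7 CPM against 17.2 to 40.8 CPM (-0.39 ± 0.31, adjusted p = 0.403), and LHCB5 (AT4G10340) at 23.6 to 47.5 CPM against 18.2 to 24.2 CPM (-0.89 ± 0.28, adjusted p = 0.0544). The calls of LHCB1.1, LHCB2.1 and LHCB6 held without each single library. That of LHCB4.1 did not: its adjusted p was 0.121 after loss of day 7 replicate 1, 0.115 after loss of day 7 replicate 3, 0.127 after loss of day 12 replicate 1, 0.0501 after loss of day 12 replicate 2 and 0.0998 after loss of day 12 replicate 3. A fit blocked on replicate number gave 0.0875. LHCB5 passed after loss of day 7 replicate 2 (adjusted p = 0.00620) and LHCB3 after loss of day 12 replicate 2 (-0.84, adjusted p = 0.00929).

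The antenna of photosystem I consists of 4 proteins, LHCA1 to LHCA4, bound along one side of the core. LHCA4 (AT3G47470) stood at 85.3, 59.5 and 87.3 CPM on day 7 and at 49.5, 54.0 and 42.6 CPM on day 12. It fell by 0.66 ± 0.16 (adjusted p = 0.0193), the smallest fitted change among the called genes, and its groups did not overlap. LHCA2 (AT3G61470) went from 13.9, 6.83 and 11.3 CPM to 4.08, 3.82 and 4.02 CPM. It fell by 1.41 ± 0.29 (adjusted p = 0.00893), with day 12 libraries that lay close together. LHCA1 (AT3G54890) fell by 0.89 ± 0.27 (adjusted p = 0.0497), from 22.3 to 39.0 CPM on day 7 to 10.6 to 20.1 CPM on day 12. LHCA3 (AT1G61520) stood at 33.3, 21.3 and 28.1 CPM on day 7 and at 13.5, 22.2 and 9.10 CPM on day 12, so that day 12 replicate 2 lay above day 7 replicate 2 (-0.84 ± 0.31, adjusted p = 0.0910). Only the call of LHCA2 among these genes held without each single library. For LHCA1 and LHCA4 the adjusted p was 0.137 and 0.0708 after loss of day 7 replicate 1, 0.115 and 0.0627 after loss of day 7 replicate 3, 0.113 and 0.0643 after loss of day 12 replicate 1, and 0.0751 and 0.0523 after loss of day 12 replicate 3. After loss of day 12 replicate 2 it was 0.0595 for LHCA1, and LHCA3 passed (adjusted p = 0.0112). With the replicate block LHCA1 was at 0.0608.

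Of the 9 photosystem I subunit genes 8 fell, and in all 9 the day 12 libraries lay wholly below those of day 7. Whether this share differed from that of the other groups was not tested. PSAL (AT4G12800), a membrane subunit on the side where mobile antenna docks, stood at 13.3, 6.20 and 6.64 CPM on day 7 and at 2.35, 1.82 and 1.91 CPM on day 12. It fell by 2.08 ± 0.37 (adjusted p = 0.00549), with day 7 replicate 1 apart from the other day 7 libraries. PSAF (AT1G31330), which helps to bind plastocyanin, went from 25.4, 14.7 and 15.4 CPM to 8.26, 10.2 and 8.26 CPM and fell by 1.04 ± 0.23 (adjusted p = 0.0138). PSAG (AT1G55670), a subunit next to the antenna and the photosystem I subunit gene of highest mean TPM on day 7, went from 17.8, 12.7 and 12.3 CPM to 6.84, 8.31 and 4.23 CPM. It fell by 1.09 ± 0.26 (adjusted p = 0.0156). Of its 50-base windows 58.8% occur in the overlapping locus AT1G55673, which itself held at most 2 counts in a library.

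PSAD-1 (AT4G02770) and PSAE-1 (AT4G28750), subunits at the ferredoxin docking site, fell by 1.38 ± 0.41 (adjusted p = 0.0412) and 1.78 ± 0.54 (adjusted p = 0.0398). PSAD-1 stood at 16.7 CPM in day 7 replicate 1 and at 6.65 and 6.09 CPM in the other two, against 3.18 to 4.01 CPM on day 12. PSAE-1 ranged from 1.80 to 5.03 CPM on day 7 and from 0.635 to 1.72 CPM on day 12, and its change was -2.42 after loss of day 12 replicate 2. PSAH2 (AT1G52230), needed for docking of mobile antenna, had 33, 17 and 26 counts on day 7 and 9, 1 and 3 on day 12, and fell by 2.43 ± 0.68 (adjusted p = 0.0312). Its change was -3.29 after loss of day 12 replicate 1 and -1.82 after loss of day 12 replicate 2. PSAK (AT1G30380) fell by 1.42 ± 0.42 (adjusted p = 0.0363) and the lumenal subunit gene PSAN (AT5G64040) by 0.87 ± 0.27 (adjusted p = 0.0443). PSAO (AT1G08380) was not called (-0.96 ± 0.35, adjusted p = 0.0721), at 3.68 to 7.48 CPM on day 7 and 2.14 to 3.15 CPM on day 12.

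Of the photosystem I calls only that of PSAL held without each single library, and the number called of 9 was 2 after loss of day 7 replicate 1, 7 after loss of day 7 replicate 2, 4 after loss of day 7 replicate 3, and 2, 4 and 3 after loss of day 12 replicates 1, 2 and 3. With day 7 replicate 1 left out the adjusted p was 0.106 for PSAD-1, 0.132 for PSAE-1, 0.0652 for PSAG, 0.111 for PSAH2, 0.119 for PSAK and 0.151 for PSAN, and the log2 change of PSAD-1 was -0.77. Day 7 replicate 1 was the highest day 7 library for all 9 genes. When day 7 replicate 2 was left out, it was 0.0727 for PSAN. After loss of day 7 replicate 3 it was 0.115 for PSAE-1, 0.0766 for PSAH2, 0.0998 for PSAK and 0.0907 for PSAN. With day 12 replicate 1 left out it was 0.113 for PSAD-1, 0.132 for PSAE-1, 0.0572 for PSAF, 0.0528 for PSAG, 0.0513 for PSAK and 0.120 for PSAN. When day 12 replicate 2 was left out, it was 0.103 for PSAD-1, 0.0681 for PSAH2, 0.0646 for PSAK and 0.103 for PSAN. After loss of day 12 replicate 3 it was 0.105 for PSAD-1, 0.0937 for PSAE-1, 0.0653 for PSAH2, 0.0505 for PSAK and 0.0607 for PSAN. With the replicate block PSAE-1 (adjusted p = 0.0716) and PSAN (adjusted p = 0.0573) were not called.

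Among the photosystem II subunits, PSBX (AT2G06520), a small membrane protein of the core, stood at 27.8, 16.0 and 22.7 CPM on day 7 and at 8.77, 8.31 and 8.47 CPM on day 12. It fell by 1.37 ± 0.21 (adjusted p = 0.00330), and its day 12 libraries lay within a narrow band below all of day 7. PSBO, PSBP and PSBQ proteins shield the water-splitting site on the lumenal side. PSBQ-1 (AT4G21280) went from 10.2, 5.30 and 5.09 CPM to 3.37, 2.48 and 2.54 CPM and fell by 1.27 ± 0.35 (adjusted p = 0.0280). Its paralog PSBQ-2 (AT4G05180) went from 8.98, 2.96 and 4.87 CPM to 2.45, 2.197 and 0.423 CPM and was not called (-1.59 ± 0.56, adjusted p = 0.0718). The groups of neither gene overlapped. PSBP-1 (AT1G06680) fell by 1.06 ± 0.29 (adjusted p = 0.0368), from 26.0 to 40.9 CPM on day 7 to 10.2 to 22.3 CPM on day 12.

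PSBO1 (AT5G66570) stood at 56.6, 32.6 and 44.0 CPM on day 7 and at 23.7, 33.2 and 14.8 CPM on day 12. Day 12 replicate 2 lay above day 7 replicate 2, and the change of -0.86 ± 0.31 did not pass (adjusted p = 0.0933). PSBO2 (AT3G50820) went from 9.39, 6.92 and 6.09 CPM to 3.88, 5.92 and 1.48 CPM (-0.91 ± 0.41, adjusted p = 0.132), without overlap. PSBR (AT1G79040), which supports the oxygen-evolving complex and had the highest mean TPM of the photosystem II subunit genes, stood at 37.7, 27.0 and 30.8 CPM on day 7 and at 17.4, 25.3 and 11.2 CPM on day 12 (-0.78 ± 0.27, adjusted p = 0.0707). PSBW (AT2G30570), a small subunit that stabilises the antenna-bound complex, had the lowest fitted value of the group, -1.86 ± 0.63 (adjusted p = 0.0674), with 3.32 to 12.9 CPM on day 7 and 1.15 to 3.77 CPM on day 12, and its groups overlapped.

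In this group the call of PSBX held without each single library. For PSBP-1 the adjusted p was 0.112 after loss of day 7 replicate 1, 0.107 after loss of day 7 replicate 3 and 0.110 after loss of day 12 replicate 2. For PSBQ-1 it was 0.103 after loss of day 7 replicate 1 and 0.0547, 0.0719 and 0.0633 after loss of day 12 replicates 1, 2 and 3. After loss of day 12 replicate 2, PSBO1 (adjusted p = 0.0428), PSBO2 (adjusted p = 0.0428) and PSBR (adjusted p = 0.0112) passed. PSBW passed after loss of day 7 replicate 2 (adjusted p = 0.0316) and after loss of day 12 replicate 1 (-2.68, adjusted p = 0.0369). With the replicate block PSBQ-2 (adjusted p = 0.0430) and PSBW (adjusted p = 0.00365) were called lower.

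Of the carriers, DRT112 (AT1G20340), the major plastocyanin gene of Arabidopsis leaves, stood at 21.9, 12.7 and 15.6 CPM on day 7 and at 6.22, 5.25 and 4.87 CPM on day 12. It fell by 1.59 ± 0.24 (adjusted p = 0.00311), the lowest adjusted p of the 31 genes, with no overlap, and the call held without each single library. The other plastocyanin gene, PETE1 (AT1G76100), had 5, 1 and 7 counts on day 7 and 3, 0 and 0 on day 12, for which the depth-scaled ratio was 3.94 (95% exact counting interval 1.08 to 21.5), and was not tested. Day 7 replicate 2 was within its day 12 range. PETC (AT4G03280), the Rieske protein of the cytochrome b6f complex, stood at 17.3, 12.9 and 15.1 CPM on day 7 and at 9.28, 12.9 and 6.99 CPM on day 12. In CPM day 12 replicate 2 lay just below day 7 replicate 2 (12.896 against 12.932). In deposited TPM the days overlapped, with 20.89 in day 12 replicate 2 and 18.78 in day 7 replicate 1. The change of PETC, -0.60 ± 0.23, did not pass (adjusted p = 0.0824), except after loss of day 12 replicate 2 (adjusted p = 0.0245).

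Compared per transcript length, the order of levels was largely alike on both days. LHCB1.3 had the highest mean TPM of the 34 genes, 117 ± 28.0 on day 7 and 60.9 ± 28.7 on day 12 (SD, n = 3). LHCA4 followed with 77.2 ± 12.5 and 52.3 ± 11.2 TPM, and PSBR with 59.4 ± 0.035 and 36.6 ± 17.0 TPM. The small day 7 SD of PSBR held for deposited TPM only. In day 7 replicates 1, 2 and 3 PSBR stood at 37.7, 27.0 and 30.8 CPM. After TPM was rescaled without rRNA and organelle loci it stood at 86.4, 60.5 and 67.2. On day 7 PSBX was at rank 4 with 47.1 ± 5.82 TPM. LHCB3, PSBO1, PSBP-1, LHCB5 and LHCA1 followed between 34.98 and 38.4 TPM, where neighbours in the order lay closer together than their SD. On day 12 PSBX was at rank 8 with 20.01 ± 1.62 TPM. PSAL moved from rank 21 to rank 26. On day 12 LHCA1, at rank 7, had 20.2 ± 7.72 TPM. PSBW, at rank 25, had 3.24 ± 2.48 TPM beside 2.89 ± 0.386 TPM for PSAL. These neighbours also lay closer together than their SD, and the moves in rank were not tested. At the low end, LHCB1.1, LHCB2.2, PETE1 and LHCB1.2 had 3.23, 1.75, 0.927 and 0.697 TPM on day 7.

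Summed over its genes, each group was lower on day 12. The photosystem I subunit genes summed to 75.5 ± 25.8 CPM on day 7 and 30.7 ± 4.43 CPM on day 12 (SD, n = 3), a 2.39-fold difference of geometric means. The folds were 2.12 for the photosystem II subunits (162 ± 42.1 to 77.5 ± 24.0 CPM) and 2.11 for the carriers (32.3 ± 7.13 to 15.3 ± 3.18 CPM). They were 1.89 for the photosystem II antenna (252 ± 63.4 to 134 ± 43.0 CPM) and 1.74 for the photosystem I antenna (146 ± 32.3 to 83.7 ± 16.9 CPM). In the photosystem II antenna the days overlapped, with 180.6 CPM in day 12 replicate 2 and 178.7 CPM in day 7 replicate 2. In the other 4 groups they did not. The differences between these folds were not tested, and without 1 library at a time the fold of the photosystem I subunits ranged from 1.99 to 2.71 and that of the photosystem I antenna from 1.56 to 1.99. Within the summed CPM of the 34 genes, the share of the photosystem I antenna was 22.0 ± 0.785% on day 7 and 24.8 ± 1.63% on day 12, and that of the photosystem I subunits 11.2 ± 1.80% and 9.19 ± 1.16%. The photosystem II antenna took 37.7 ± 2.49% and 39.0 ± 2.65%. All 34 genes summed to 814, 491 and 699 CPM in day 7 replicates 1, 2 and 3 and to 345, 430 and 250.1 CPM in day 12 replicates 1, 2 and 3.

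**Figure D3:**
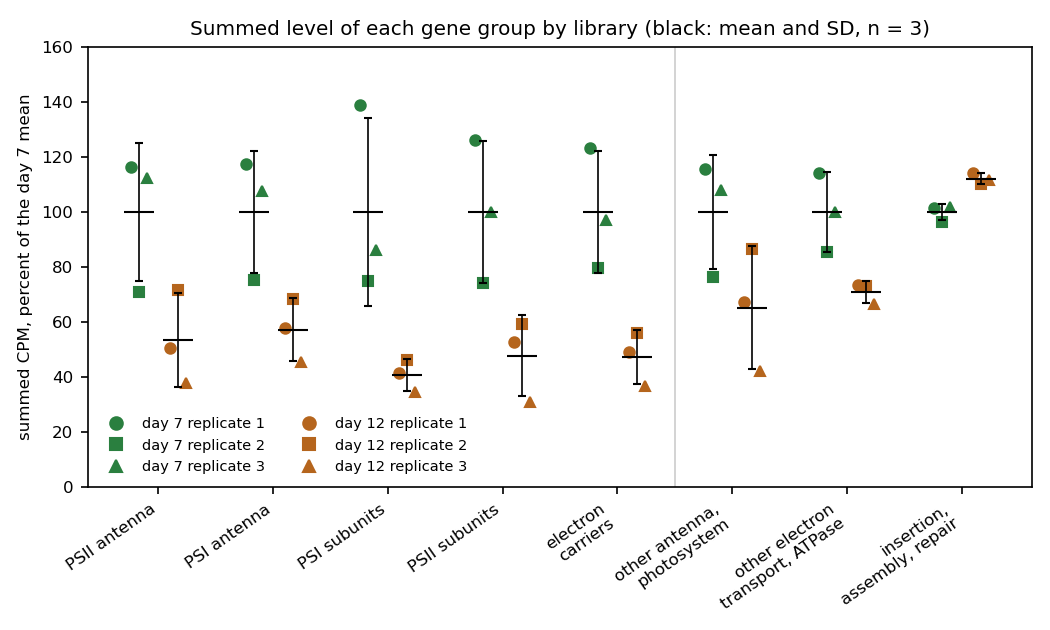
Summed CPM of each gene group in each library as a percentage of the group's day 7 mean (vertical axis), with the mean and SD of 3 libraries in black. Left of the grey line are the 34 genes by complex, and right of it other nuclear genes of the pathway. The insertion, assembly and repair genes are the group whose day 12 libraries all lie above day 7. Of these 16 genes 2, ALB3 and TAP38, were called higher and 6 had fitted values below 0. In deposited TPM the days of this group overlapped.

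Within a day many of the genes were highest or lowest in the same library, more so on day 7 than on day 12. Day 7 replicate 1 was the highest day 7 library for 26 of the 31 tested genes and day 7 replicate 2 the lowest for 26. Over all genes tested these libraries were the highest and the lowest in 34% and 33.3%. On day 12, replicate 2 was the highest library for 18 of the 31 genes and replicate 3 the lowest for 21, against 34.3% and 34.4% of all genes. Going the other way, replicate 1 was the highest for 12 of the 31 and replicate 2 the lowest for 7, against 29.3% and 35.8% of all genes. The median ratio of day 12 replicate 2 to the mean of the other day 12 libraries was 1.24 over the 31 genes. It ran from 0.123 for PSAH2 to 2.55 for PSAE-1, with 2.09 for LHCB3 and 0.964 for PSBX. The comparison of day 12 replicate 2 with the others was chosen after its values were seen. The summed leaf epidermis markers, most of whose CPM came from LTP1 and KCS10, had the same order of libraries, with 631, 332 and 424 CPM in day 7 replicates 1, 2 and 3 and 199.8, 265 and 164 CPM in day 12 replicates 1, 2 and 3, while ATML1, PDF2 and CER1 among them had other orders. The summed mesophyll markers did not, with 104, 68.9 and 59.9 CPM and 36.7, 30.4 and 26.9 CPM. The rRNA share of counts was 2.90%, 0.121% and 1.60% in the day 7 libraries and 1.82%, 0.422% and 3.90% in those of day 12. Their part in the differences between libraries was not tested.

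Paralogs were compared by their share of the counts of a pair, for 6 pairs chosen after the values were seen. With 3 libraries per day the exact two-sided permutation test over 20 splits cannot give a p below 0.1. LHCB1.1 made up 2.74%, 2.55% and 3.20% of the counts of LHCB1.1 and LHCB1.3 in day 7 replicates 1, 2 and 3, and 0.833%, 0.277% and 0.704% in day 12 replicates 1, 2 and 3 (exact p = 0.1, Benjamini-Hochberg 0.2 over the 6 pairs). LHCB4.2 made up 26.2%, 30.0% and 30.0% of the counts of LHCB4.1 and LHCB4.2 on day 7 and 31.8%, 40.8% and 40.6% on day 12 (exact p = 0.1, adjusted 0.2). LHCB1.5 (AT2G34420), an LHCB1 copy on chromosome 2 that is not among the 34 genes, made up 38.8 ± 2.09% of the counts of LHCB1.5 and LHCB1.3 on day 7 and 48.3 ± 1.37% on day 12 (SD, n = 3, exact p = 0.1, adjusted 0.2). Every 50-base window of LHCB1.5 also occurs in the overlapping locus AT2G08665, which held at most 4 counts in a library. In these 3 pairs the days did not overlap. For LHCB2.1 with LHCB2.2, PSBO2 with PSBO1 and PSBQ-2 with PSBQ-1 the days overlapped, with exact p of 0.6, 0.5 and 0.6. Counts divided by the product of TPM and transcript length, relative to the median gene of the library, were 0.917 for LHCB1.1 and 0.910 for LHCB1.3, within the range that held 90% of all genes (0.736 to 1.16). These are medians over libraries. PETE1, with few counts, had a median of 0.642, below that range. Over single libraries the value ran from 0 to 1.13 for LHCB1.2 and from 0.629 to 0.952 for LHCB2.1.

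**Figure D4:**
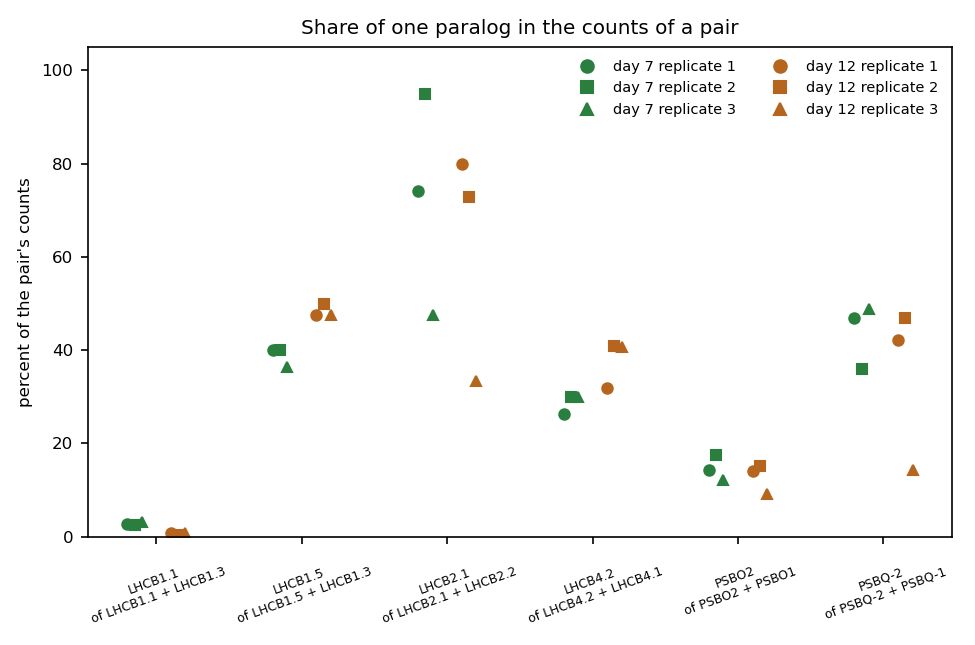
Share of one gene in the summed counts of a pair (vertical axis, percent) in each of the 6 libraries, for 6 pairs. Day 12 symbols lie wholly below day 7 for LHCB1.1 and wholly above for LHCB1.5 and LHCB4.2, and the days overlap in the other 3 pairs.

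Promoters were read from TAIR10.1 as the 250 bases before to 50 bases after the annotated gene start of RefSeq, for all 34 genes and for 27443 genes in all, and searched on both strands for 5 motifs named for light-responsive and basal elements. Sites of different motifs were counted separately and may overlap. CACGTG, the G-box, was found in 11 of the 34 promoters (32.4%), against 7.68% of all promoters. GATAAG, the I-box, was found in 17 (50%, against 14.6%) and CCAATC, part of a site known from GLK factors in Arabidopsis, in 15 (44.1%, against 12.3%). GGTTAA, the GT1 box, was in 7 (20.6%, against 16.7%) and TATAAA, the TATA box, in 16 (47.1%, against 52.1%). In the 250 bases before the start alone, the shares of the members were 17.6%, 32.4%, 32.4%, 14.7% and 47.1% in the same order, against 6.49%, 12.3%, 10.2%, 14.6% and 47.3% of all promoters. These are matches of letters, and no binding was measured.

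The 250 bases before the start are printed for LHCB1.1 and LHCB1.3, the LHCB1 copies that were tested, and for LHCB4.2 and DRT112, which hold the same 3 motifs and had changes of -0.25 and -1.59. These 4 were chosen after the values were seen. Capitals mark matches on either strand to any of the 5 motifs. LHCB1.1 has its promoter at chr1:10475970-10476219 (minus strand), LHCB1.3 at chr1:10477635-10477884 (plus strand), LHCB4.2 at chr3:2717307-2717556 (plus strand) and DRT112 at chr1:7043393-7043642 (minus strand).
LHCB1.1: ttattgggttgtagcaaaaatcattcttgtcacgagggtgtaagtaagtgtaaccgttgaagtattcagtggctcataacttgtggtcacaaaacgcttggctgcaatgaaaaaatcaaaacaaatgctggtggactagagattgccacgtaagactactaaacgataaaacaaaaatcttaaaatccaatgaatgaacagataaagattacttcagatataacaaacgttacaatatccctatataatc
LHCB1.3: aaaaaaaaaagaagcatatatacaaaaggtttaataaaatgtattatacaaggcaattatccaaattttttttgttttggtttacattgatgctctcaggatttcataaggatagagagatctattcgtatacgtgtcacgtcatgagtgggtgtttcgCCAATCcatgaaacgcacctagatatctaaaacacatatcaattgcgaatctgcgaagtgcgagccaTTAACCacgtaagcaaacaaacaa
LHCB4.2: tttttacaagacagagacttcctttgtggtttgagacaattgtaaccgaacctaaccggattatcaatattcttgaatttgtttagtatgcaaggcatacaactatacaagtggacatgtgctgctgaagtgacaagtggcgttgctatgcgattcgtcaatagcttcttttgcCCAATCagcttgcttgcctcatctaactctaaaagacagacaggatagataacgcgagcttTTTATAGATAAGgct
DRT112: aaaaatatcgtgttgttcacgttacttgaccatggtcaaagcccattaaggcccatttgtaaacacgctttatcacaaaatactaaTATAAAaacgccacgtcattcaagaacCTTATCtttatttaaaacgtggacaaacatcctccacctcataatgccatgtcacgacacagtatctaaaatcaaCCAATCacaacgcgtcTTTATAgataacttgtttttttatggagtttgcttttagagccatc
No motif of the 5 occurs in the printed window of LHCB1.1. LHCB1.3 has 1 CCAATC and 1 GGTTAA, the latter on the other strand. In LHCB4.2 the TATA box, on the other strand, and the I-box adjoin just before the start of the gene. In DRT112 the I-box, on the other strand, lies upstream of CCAATC.

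Other nuclear genes of the pathway were taken from lists chosen with earlier results known. Of 16 other antenna and photosystem genes 10 were tested, 2 fell and 0 rose, with a median log2 change of -0.72. Of all genes tested 12.5% were called lower, so 2 of 10 is near the background. PSBS (AT1G44575), which sets the dissipation of excess light energy, had 34, 19 and 43 counts on day 7 and 6, 0 and 1 on day 12 and fell by 3.64 ± 0.80 (adjusted p = 0.0133). Its change was -5.46 after loss of day 12 replicate 1 and -2.93 after loss of day 12 replicate 2. PSBTN (AT3G21055), a small photosystem II subunit, fell by 2.01 ± 0.38 (adjusted p = 0.00719), and both calls held without each single library. The second copies PSAD-2, PSAE-2 and PSAH-1 were not called (-0.86 ± 0.40, -0.74 ± 0.31 and -0.92 ± 0.32, with adjusted p of 0.145, 0.109 and 0.0653). PSAH-1 passed after loss of day 7 replicate 2 (adjusted p = 0.0434). LHCB1.5 was not called either (-0.46 ± 0.35, adjusted p = 0.392).

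Of 10 genes of electron transport and the chloroplast ATP synthase, all tested, 7 fell and 0 rose (median -0.84). Among all genes tested 12.5% were called lower. The 3 of lowest adjusted p were ATPC1 (AT4G04640), the gamma subunit of the ATP synthase, which fell by 1.74 ± 0.27 (adjusted p = 0.00343), FD2 (AT1G60950), the main leaf ferredoxin, by 1.04 ± 0.18 (adjusted p = 0.00501), and FNR2 (AT1G20020), which reduces NADP with electrons from ferredoxin, by 2.12 ± 0.39 (adjusted p = 0.00667). Their calls held without each single library. FNR1, ATPD, PGR5 and FD1 also fell (adjusted p = 0.0129, 0.0329, 0.0178 and 0.0412). With day 7 replicate 1 left out none of these 4 passed (adjusted p = 0.0534, 0.116, 0.0688 and 0.129). FD1 did not pass without any other library either (adjusted p of 0.0519 to 0.110), nor did ATPD after loss of day 7 replicate 3 (0.0900), day 12 replicate 2 (0.0826) or day 12 replicate 3 (0.0759). Of 16 genes for insertion, assembly and repair, all tested, 0 fell and 2 rose, with a median of 0.08. Of all genes tested 12.7% were called higher, so 2 of 16 is near the background. ALB3 (AT2G28800), which inserts light-harvesting proteins into the thylakoid, stood at 53.1, 59.5 and 64.5 CPM on day 7 and 86.7, 84.4 and 80.7 CPM on day 12 and rose by 0.51 ± 0.10 (adjusted p = 0.00735). TAP38 (AT4G27800), the phosphatase that acts on phosphorylated antenna, rose by 0.71 ± 0.13 (adjusted p = 0.00606). Both calls held without each single library. On log2(TPM + 1) neither passed, with changes of 0.61 and 0.77 (limma adjusted p = 0.160 and 0.0828). At an unadjusted p of 0.05, 6 of the 16 genes differed, beside 38.9% of all genes tested, and DESeq2 also called 0 lower and 2 higher.

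Of 11 plastid-encoded subunit genes 9 were tested and 0 were called by edgeR, DESeq2 or limma-voom, with 0 at an unadjusted p of 0.05 in edgeR and fitted values from -1.48 to 1.39. With the replicate block 1 of them, psaB, was called higher (adjusted p = 0.0248). Their summed CPM was 84.3, 4.67 and 32.3 in day 7 replicates 1, 2 and 3 and 105.3, 16.0 and 44.0 in day 12 replicates 1, 2 and 3, a spread within each day larger than the difference between days. The GLK1 gene (AT2G20570), an activator of antenna genes, had 19, 20 and 22 counts on day 7 and 9, 1 and 2 on day 12 and was called lower (adjusted p = 0.0311). The call did not hold after loss of day 7 replicate 1 (0.0940), day 7 replicate 2 (0.0590), day 7 replicate 3 (0.0871), day 12 replicate 2 (0.0695) or day 12 replicate 3 (0.0699). The change was -2.19 ± 0.62, and -3.35 after loss of day 12 replicate 1. GLK2 (AT5G44190) was at 2.21 to 3.40 CPM on day 7 and 1.15 to 2.12 CPM on day 12 and was not called (-0.82 ± 0.40, adjusted p = 0.160).

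Summed levels of the markers of leaf cell types were lower on day 12, as were those of the 34 genes. Beside the calls of markers given here, 12.5% of all genes tested were called lower and 12.7% higher. Of 6 mesophyll markers 3 were tested and all 3 fell. RBCS3B (AT5G38410), of the Rubisco small subunit, had 29, 16 and 19 counts on day 7 and 0, 0 and 1 on day 12 (adjusted p = 0.00508). Its fitted change moved between -4.84 and -7.55 after loss of single day 12 libraries. Reads of RBCS1B, RBCS2B and RBCS3B, close copies, may be divided among them. RBCS1A (AT1G67090) stood at 14.6 to 35.1 CPM and 6.56 to 9.998 CPM, and RCA (AT2G39730), Rubisco activase, at 32.5 to 63.1 CPM and 19.5 to 26.6 CPM. CA1, an abundant carbonic anhydrase gene of leaves, had at most 4 counts in any library. The adjusted p of RBCS1A (0.0139 in all libraries) was 0.0640 after loss of day 12 replicate 2. That of RCA (0.0180) was 0.0565 after loss of day 7 replicate 2, 0.0693 after loss of day 12 replicate 2 and 0.0535 after loss of day 12 replicate 3. The 6 guard cell markers summed to 4.65 to 10.2 CPM on day 7 and 1.43 to 2.24 CPM on day 12. OZS1 and SDD1 had 0 counts on day 12, but only 1, 4 and 0 and 0, 0 and 2 counts on day 7. FAMA had 12, 15 and 7 counts on day 7 and 2, 4 and 2 on day 12. MYB60 overlapped between the days, with 12, 17 and 2 counts against 8, 1 and 3. HT1 was level, with 5, 6 and 3 counts on day 7 and 5, 6 and 2 on day 12. KAT1 (AT5G46240), a guard cell potassium channel and the only one of the 6 markers tested, fell by 3.02 ± 0.73 (adjusted p = 0.0184). It did not pass after loss of day 7 replicate 1 (0.0665) or day 12 replicate 2 (0.0581), and its change was -3.73 after loss of day 12 replicate 1. All 5 epidermis markers were tested. KCS10 (AT2G26250), an enzyme of cuticle lipid synthesis, fell by 1.13 ± 0.16 (adjusted p = 0.00300) and PDF2 (AT4G04890), an epidermal transcription factor, by 0.77 ± 0.16 (adjusted p = 0.00919), and both calls held without each single library. The other 3 were not called, namely ATML1 (-0.68 ± 0.25, adjusted p = 0.0774), LTP1 (-1.25 ± 0.51, adjusted p = 0.138) and CER1 (0.09 ± 0.47, adjusted p = 0.906). Of the 12 callus markers 10 were tested and 3 fell. These were AIL6 (AT5G10510, -0.48 ± 0.11, adjusted p = 0.0150), SCR (AT3G54220, -0.45 ± 0.11, adjusted p = 0.0215) and LBD16 (AT2G42430, -0.80 ± 0.22, adjusted p = 0.0297), each of which failed the threshold after loss of day 7 replicate 1 (0.0553, 0.0606 and 0.0934). SCR also failed it after loss of day 7 replicate 3 (0.0751) and day 12 replicate 2 (0.0548). LBD16 failed it after loss of any library other than day 7 replicate 2 (0.0507 to 0.0934). WOX11 (AT3G03660), a regulator of root founder cells, rose by 1.71 ± 0.45 (adjusted p = 0.0465), and this call did not hold after loss of any library other than day 12 replicate 3 (0.0613 to 0.144). LBD29, which was not tested, had 24, 20 and 7 counts on day 7 and 3, 1 and 0 on day 12. LBD17, also not tested, had 9, 6 and 5 counts on day 7 and 0, 10 and 3 on day 12. The part of leaf cells in the changes of the 34 genes was not tested.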

How the data were processed

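Per the labels' protocols, TransZol Up served to extract callus RNA, of which 1 µg went into each TruSeq library. The authors deposited whole-number counts, not normalised, and TPM values, both for 36793 loci. STAR 2.7.10a, RSEM 1.3.1 and TAIR10 are named in the submitters' processing notes, and which tool made which table is not given in the sources used here. Columns were matched to samples by name. No replicate pair of a day agreed within counting noise, and 6 libraries were used.

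The 34 genes, the other lists and the tests were chosen with earlier results of these data known. Counts were tested in R 4.3.3 with edgeR 4.0.16 (filterByExpr, TMM factors, robust quasi-likelihood fit with day as the only term, Benjamini-Hochberg at 0.05 over 18364 genes). Log2 changes are day 12 minus day 7, with standard errors taken from the change and its F statistic. CPM are scaled by TMM factors of 0.960 to 1.04. A count of 3 was taken as the floor, and floors and intervals cover counting error only. The procedure was run on simulated counts in which few genes changed, which does not measure its rate of false calls on these data. All 34 genes are described, with the value in every library for the 2 of lowest adjusted p and the 1 of highest TPM in each group and for all paralogs. From each other list at most 3 called genes are named, by adjusted p, with the first called the other way, and genes named beyond this were chosen after their values were seen.

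Alternatives were other scaling factors, no count filter, DESeq2 1.42.0, limma 3.58.1 on counts (voom) and on log2(TPM + 1) or log2(TPM + 0.1) for loci with a mean TPM of at least 1, TPM rescaled without rRNA and organelle loci, the loss of each library, and the replicate number as a block. Deviations from the day mean correlated across genes at 0.151, 0.156 and 0.244 between libraries of equal number and at -0.162 to 0.0056 between others. The block uses the replicate numbers of the labels, which do not say that equal numbers were paired. Deviations from a day mean cancel out within the day, so these correlations depend on each other, and pairing was not tested.

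Sequences, coordinates and promoter windows were read from the RefSeq genome and annotation of TAIR10.1, in which all 34 genes matched by locus. Promoter windows were cut from the genome because no promoter table was used here, and no protein sequence is given.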

Additional observations from a re-analysis of the deposited data

How the results depend on the processing

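All 713 log2 changes of the 31 tested genes under the alternatives run lay below 0, and 0 of the genes were called higher in any of them. Of the 19 calls, 7 held without each single library (LHCB1.1, LHCB2.1, LHCB6, LHCA2, PSAL, PSBX and DRT112), and 4 of these (LHCB1.1, PSAL, PSBX and DRT112) held under every alternative run. Of the 12 genes not called, 10 were called in at least 1 alternative. Over all 34 genes, of which up to 34 pass the filter of an alternative, the number called lower ranged from 8 to 21 without 1 library, the 21 including LHCB2.2. On log2(TPM + 1) without a filter it was 4, and under the remaining settings 13 to 26, the 26 (DESeq2) including LHCB1.2. With the replicate block, which uses the pairing by number, it was 17, losing LHCB4.1, LHCA1, PSAE-1 and PSAN and gaining PSBQ-2 and PSBW.

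The limma fits were first made with a robust empirical Bayes step and then without it, a switch made after the results were seen, so the robust fits are given as alternatives chosen after seeing the data. On log2(TPM + 1) without a filter the robust step gave 5 genes lower, and 14 to 25 in the other 4 fits.

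Of the 42 other nuclear genes of the pathway 36 were tested in the main fit and 9 were lower, beside 12.5% of all genes tested. The number lower was 5 on log2(TPM + 1) without a filter (0.457% of all genes). It was 5 to 9 without 1 library (6.62% to 10.9%) and 11 with the replicate block (13.8%). The number higher was 2 in the main fit, where 12.7% of all genes tested were called higher, and 2 to 3 without 1 library. It was 0 on log2(TPM + 1), on log2(TPM + 0.1) and on log2(TPM + 1) without a filter. With the robust step these 3 fits gave 1, 1 and 0. The cause was not tested. The fold of the summed 34 genes was 1.96, 1.88 on deposited TPM and 1.70 to 2.26 without 1 library. Genes with few counts (LHCB1.1, LHCB1.2, LHCB2.1, LHCB2.2, PETE1 and PSAH2) are limited by depth.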
